A study of Mus musculus with 8 samples.

Results

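Corticosteroid receptors and glucocorticoid-responsive genes were described in the hypothalamus of mice with a disrupted Bgn gene, which encodes the matrix proteoglycan biglycan, and of wild-type mice. The set was given as a list of symbols, with no threshold on measured values, and comprised 10 genes: the glucocorticoid receptor Nr3c1, the mineralocorticoid receptor Nr3c2, and 8 genes whose transcription glucocorticoids are known to raise, namely Fkbp5, Sgk1, Tsc22d3, Zbtb16, Cdkn1a, Pdk4, Plin4 and Sult1a1. All probes whose platform annotation carried one of these symbols were taken, which gave 11 of the 25697 probes on the array, for 8 of 16593 named genes. Cdkn1a had 3 probes, Tsc22d3 had 2, and Nr3c1, Fkbp5, Sgk1, Pdk4, Plin4 and Sult1a1 had 1 each. No probe was annotated to Nr3c2 or Zbtb16, so their expression was not analysed here. The comparison was between 4 male Bgn_KO mice and 4 male WT mice, all 13 weeks of age, with C57BL/6 as background strain and free access to the same diet. Total RNA from the hypothalamus was hybridised to Illumina bead arrays, 8 in all. The labels do not say how the gene was disrupted or in which cells.

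Corticosterone, the main glucocorticoid of the mouse, enters cells and binds receptors that are held in the cytoplasm by Hsp90 and its co-chaperones. The occupied receptors move to the nucleus and bind glucocorticoid response elements, in which a hexamer and its reverse complement face each other across a short spacer. In the hypothalamus the hormone closes the feedback loop of the stress axis, in which Crh and Avp drive the pituitary. Among the targets, Fkbp5 encodes a co-chaperone that lowers the affinity of the receptor for its ligand, Tsc22d3 encodes the leucine zipper protein GILZ, and Sgk1 a kinase that acts on ion channels and transporters. Cdkn1a encodes the cell cycle inhibitor p21, Pdk4 a kinase that shuts off pyruvate dehydrogenase, Plin4 a coat protein of lipid droplets and Sult1a1 a sulfotransferase for phenols.

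Promoter windows of RefSeq (build GRCm38.p6, 250 bases before to 50 bases after an annotated start) were available for 8 of the 10 genes, in 16 windows, and were searched for response element letters on both strands. The full palindrome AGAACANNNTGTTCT was present in 1 of the 16 windows, 1 of 6 for Sgk1, and in 3 of all 32851 windows (0.00913%). The looser palindrome GNACANNNTGTNC, which the full one contains, matched the same Sgk1 window alone among the members and 0.475% of all windows. The single hexamer AGAACA, also contained in the full palindrome, was found in 5 of the 16 windows, against 19.0% of all windows. These 5 belonged to Sgk1, Tsc22d3 and Sult1a1 only. Of 23 windows of 18 other glucocorticoid-induced genes, 0 had the full palindrome, 4 the looser one and 3 (13.0%) the hexamer. Several windows of a gene are not independent. The sequences show the Sgk1 window with the palindrome, the windows of Sult1a1 and Tsc22d3 with isolated hexamers, and that of Fkbp5, in which these letters did not occur. All run 5′ to 3′ along the gene's strand, and capitals mark hexamers and the palindrome with its spacer.
Sgk1, chr10:21993640-21993939, plus strand: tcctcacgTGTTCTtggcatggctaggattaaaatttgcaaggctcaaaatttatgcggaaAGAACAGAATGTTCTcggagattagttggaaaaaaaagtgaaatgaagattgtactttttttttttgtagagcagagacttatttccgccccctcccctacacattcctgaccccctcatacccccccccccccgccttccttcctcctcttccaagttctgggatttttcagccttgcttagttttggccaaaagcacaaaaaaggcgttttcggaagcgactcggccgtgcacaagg
Sult1a1, chr7:126676369-126676668, minus strand: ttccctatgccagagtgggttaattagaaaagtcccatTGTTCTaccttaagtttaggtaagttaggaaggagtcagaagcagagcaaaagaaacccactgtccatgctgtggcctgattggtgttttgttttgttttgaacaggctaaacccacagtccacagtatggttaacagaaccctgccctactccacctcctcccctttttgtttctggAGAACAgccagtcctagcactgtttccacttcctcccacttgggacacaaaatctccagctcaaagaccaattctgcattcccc
Tsc22d3, chrX:140600473-140600772, minus strand: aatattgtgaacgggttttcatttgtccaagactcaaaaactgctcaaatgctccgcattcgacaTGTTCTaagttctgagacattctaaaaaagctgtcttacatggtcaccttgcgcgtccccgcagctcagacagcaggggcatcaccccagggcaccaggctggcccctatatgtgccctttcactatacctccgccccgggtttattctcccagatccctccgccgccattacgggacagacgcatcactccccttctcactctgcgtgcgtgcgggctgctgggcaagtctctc
Fkbp5, chr17:28486100-28486399, minus strand: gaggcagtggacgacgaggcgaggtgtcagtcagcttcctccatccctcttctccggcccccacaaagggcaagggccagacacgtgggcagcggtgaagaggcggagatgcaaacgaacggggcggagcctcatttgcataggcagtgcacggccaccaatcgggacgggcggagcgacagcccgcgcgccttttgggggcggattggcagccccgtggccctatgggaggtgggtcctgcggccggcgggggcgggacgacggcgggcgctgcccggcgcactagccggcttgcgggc
In the Sgk1 window the palindrome reads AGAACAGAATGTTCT and its first base lies at position -189 from the start. The windows cover only the start of each gene, and a match is a description of the sequence.

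Detection p was under 0.05, taken as above background, for 13820 to 14502 probes on each array, and the median deposited signal ranged from 179.9 to 225.0. Values are given as log2 signal after background correction and quantile normalization. Markers of hypothalamic neurons were present: 7 of 10 passed the filter on dim probes, with a mean log2 signal of 12.30 to 12.67 in Bgn_KO and 12.56 to 12.69 in WT, while Sim1, Otp and Nr5a1 did not pass it. Some arrays stood apart. The Bgn probe read 8.78 to 8.997 in Bgn_KO and 9.51 to 10.43 on WT replicates 2, 3 and 4, but 8.85 on the array labelled WT replicate 1, within the Bgn_KO range. Whether the probe lies in the disrupted part was not known here, and directions rest on the labels as deposited. WT replicate 4 carried skeletal muscle transcripts, with the troponin Tnni2 at 13.25 against 4.97 to 5.84 on the other arrays. Bgn_KO replicate 4 carried a cortical marker, Tbr1, at 8.27 against 5.44 to 6.59. In tissue samples, fewer cells of a type and less RNA per cell cannot be told apart.

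The receptor itself could not be compared. The Nr3c1 probe was above background on 2 of the 8 arrays, both WT (replicates 1 and 3), with deposited signals of 164.0 to 179.5 in Bgn_KO and 166.9 to 205.9 in WT. After normalization Bgn_KO replicates 1 to 4 read 4.74, 5.33, 5.06 and 4.81 on the log2 scale, and WT replicates 1 to 4 read 5.25, 4.79, 5.35 and 4.75, an order kept for every gene that follows. These values lie at the background, so the probe was not tested, and a low signal of this probe does not show that the receptor is absent. The other 10 member probes, from 7 target genes, passed the filter. All 10 were above background on every array.

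**Figure D1:**
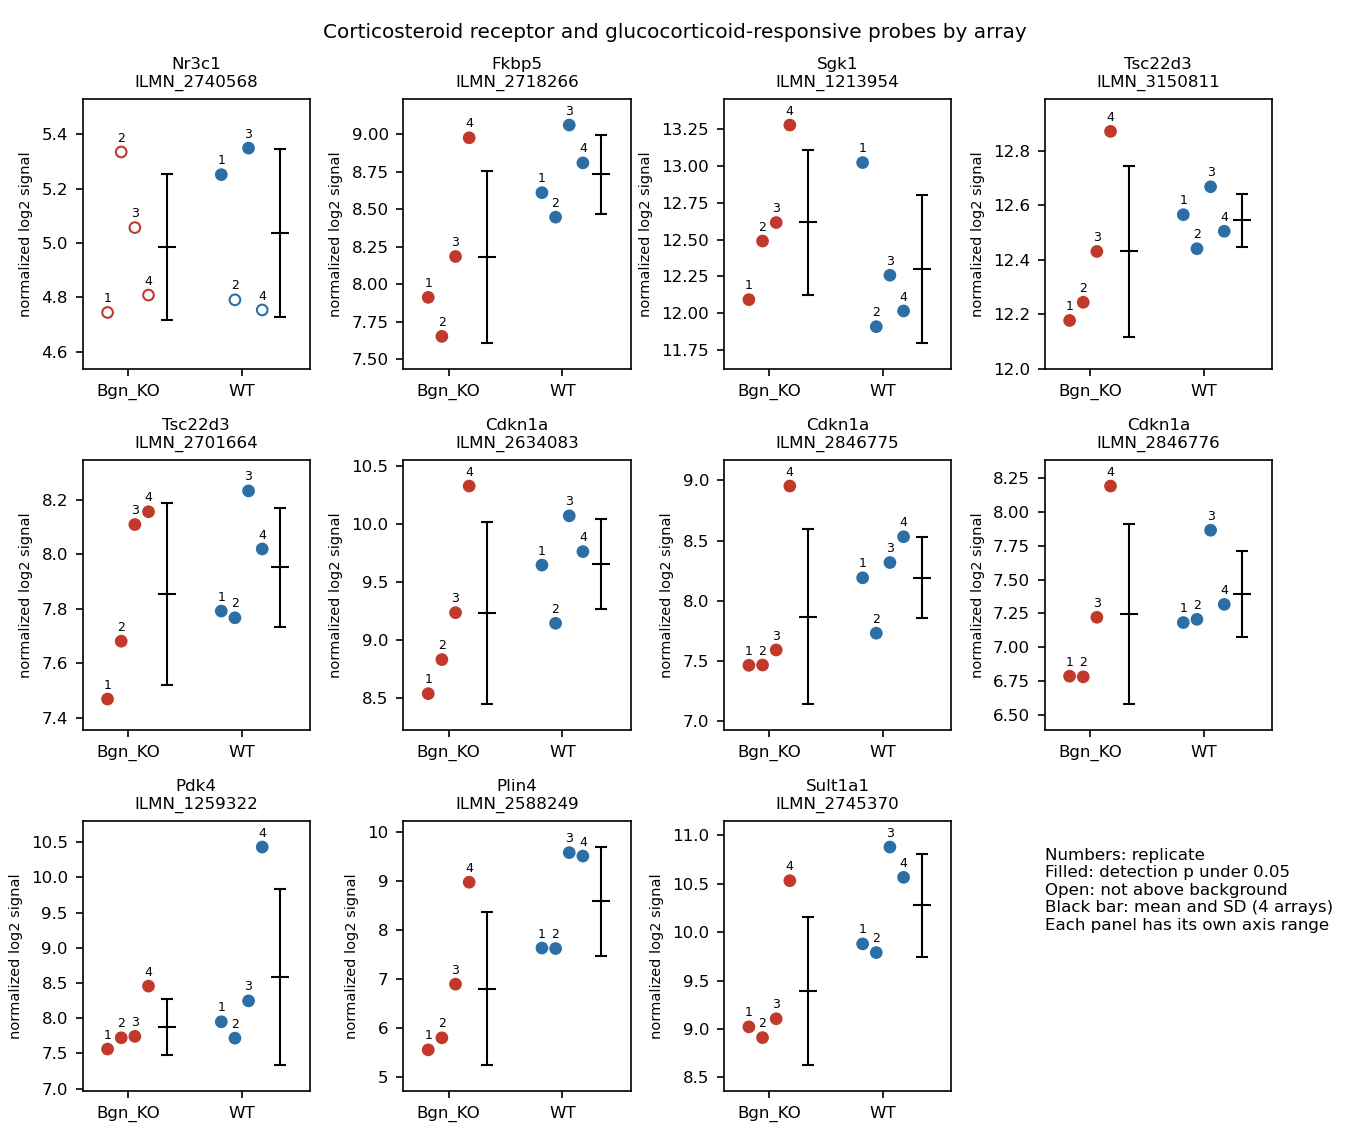
Normalized log2 signal (vertical axes, each panel with its own range) of the 11 member probes on the 4 Bgn_KO and 4 WT arrays. Points are arrays numbered by replicate, open where the probe was not above background, and black bars give the mean and SD. Bgn_KO replicate 4 is the highest Bgn_KO array in every panel except that of Nr3c1, and lies within or above the WT arrays.

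None of the 7 target genes differed between Bgn_KO and WT past the threshold over all probes. Of their 10 probes 9 had lower means in Bgn_KO and 1, that of Sgk1, a higher one. By limma's moderated test 0 of 10 passed an adjusted p of 0.05, where 0.507% of all 14190 tested probes did (0.282% lower and 0.226% higher in Bgn_KO). An unadjusted p under 0.05 was found for 2 of 10, both lower, and for 10.2% of all (4.95% lower). The groups overlapped for all 10, while 6.15% of tested probes had groups without overlap. The median log2 difference, Bgn_KO minus WT, was -0.37 over the 10 probes and 0.01 over all tested probes.

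Fkbp5, the co-chaperone whose transcript is a common readout of receptor activity, had log2 signals of 7.91, 7.65, 8.18 and 8.98 on the Bgn_KO arrays. On the WT arrays it read 8.61, 8.45, 9.06 and 8.81. Bgn_KO replicates 1 to 3 were below all WT arrays, and Bgn_KO replicate 4 was above 3 of them. The difference was -0.55 (SE 0.26, 95% interval -1.15 to 0.05, limma adjusted p = 0.528, exact permutation p = 0.143). Its probe was the only one for this gene.

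Tsc22d3, the GILZ gene, was among the brightest of the set. Its brighter probe, ILMN_3150811, read 12.18, 12.24, 12.43 and 12.87 on the Bgn_KO arrays and 12.57, 12.44, 12.67 and 12.50 on the WT arrays. Again replicate 4 was the highest Bgn_KO array, here above all WT arrays, and the other Bgn_KO arrays were below all WT arrays. The difference was -0.11 (SE 0.15, limma adjusted p = 0.847). The dimmer probe, ILMN_2701664, differed by -0.10 (SE 0.18, limma adjusted p = 0.894), and both probes correlated with r = 0.80 over the 8 arrays.

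Sgk1, the kinase with the palindrome in the promoter window shown above, departed from the other targets. It read 12.09, 12.49, 12.62 and 13.28 on the Bgn_KO arrays and 13.02, 11.91, 12.26 and 12.01 on the WT arrays. Bgn_KO replicate 4 and the array labelled WT replicate 1 were high, and the remaining WT arrays were at or below the middle of the Bgn_KO range. The difference was 0.32 (SE 0.29, 95% interval -0.34 to 0.98, limma adjusted p = 0.764). Leaving out the array labelled WT replicate 1 gave 0.56; the value was 0.19 without WT replicate 2, 0.10 without Bgn_KO replicate 4 and 0.00 without both arrays numbered 4, and passed the test in none of these (limma adjusted p between 0.432 and 0.998).

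Cdkn1a, the p21 gene, was measured by 3 probes that ranked the arrays alike (r between 0.86 and 0.94). The brightest, ILMN_2634083, read 8.54, 8.83, 9.23 and 10.33 on the Bgn_KO arrays and 9.64, 9.14, 10.07 and 9.76 on the WT arrays. Bgn_KO replicate 4 was the highest of all 8 arrays for each of the 3 probes. Differences were -0.42 (SE 0.36), -0.32 (SE 0.33) and -0.15 (SE 0.31), with limma adjusted p between 0.738 and 0.913.

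Pdk4, the pyruvate dehydrogenase kinase, read 7.56, 7.72, 7.74 and 8.46 on the Bgn_KO arrays and 7.95, 7.72, 8.25 and 10.43 on the WT arrays. One array set its difference of -0.72 (SE 0.53, limma adjusted p = 0.697): without WT replicate 4 it was -0.10 (limma adjusted p = 0.956). WT replicate 4 was the array with muscle transcripts, and skeletal muscle is known to be rich in Pdk4. There the mean of the 2 muscle markers tested of 6 was 13.51, against 6.80 to 7.41 on the other WT arrays and 6.97 to 7.51 on the Bgn_KO arrays, while Mylpf, Myh4, Tnnt3 and Ckm did not pass the filter. The part of muscle RNA in the Pdk4 value was not tested.

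Plin4 and Sult1a1 showed the largest differences of the set, and both had unadjusted p under 0.05. Plin4, the lipid droplet coat, read 5.55, 5.80, 6.89 and 8.97 on the Bgn_KO arrays and 7.63, 7.62, 9.58 and 9.51 on the WT arrays, a 16.2-fold span. The low end lay near background, where Bgn_KO replicates 1 and 2 had deposited signals of 194.2 and 183.0 (detection p 0.0188 and 0.0113). In the authors' processed values the span was smaller, from 7.57 to 9.76 on the log2 scale. Bgn_KO replicates 1 to 3 were below all WT arrays and replicate 4 was between WT replicates. The difference was -1.78 (SE 0.77, 95% interval -3.52 to -0.03, limma adjusted p = 0.483, exact permutation p = 0.114). Its size moved with the background correction, and was -0.94 without background correction and -0.93 in the authors' processed values.

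Sult1a1, the sulfotransferase, read 9.02, 8.91, 9.11 and 10.53 on the Bgn_KO arrays and 9.88, 9.79, 10.88 and 10.57 on the WT arrays. Bgn_KO replicates 1 to 3 lay close together and below every WT array. The difference was -0.89 (SE 0.38, 95% interval -1.75 to -0.03, limma adjusted p = 0.478, exact permutation p = 0.0857). No split of 4 against 4 arrays can give an exact p below 0.0286.

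The size of these differences moved in both directions when single arrays were left out. It was smaller without Bgn_KO replicate 1 for Plin4 (-1.36), the brightest Cdkn1a probe (-0.19) and the brighter Tsc22d3 probe (-0.03), without Bgn_KO replicate 2 for Fkbp5 (-0.38) and without WT replicate 3 for Sult1a1 (-0.68). For the 9 probes with lower means in Bgn_KO it was larger without Bgn_KO replicate 4, the highest Bgn_KO array for all 10 probes. For Sgk1 it was smaller (0.10). Leaving out the lowest array of a group raises its mean and leaving out the highest lowers it, so these directions were fixed in advance. Without Bgn_KO replicate 4 the differences were -0.81 (SE 0.18) for Fkbp5, -2.50 (SE 0.58) for Plin4 and -1.27 (SE 0.26) for Sult1a1. They were -0.79 (SE 0.23) for the brightest Cdkn1a probe and -0.26 (SE 0.10) for the brighter Tsc22d3 probe. Still 0 of 10 probes passed the adjusted threshold (0.493% of all tested probes did), with limma adjusted p from 0.121 for Sult1a1 upwards. The groups were then apart for 5 of 10 probes, those of Fkbp5, Plin4 and Sult1a1 and 1 each of Tsc22d3 and Cdkn1a, against 11.1% of all tested probes. That array is also the one with the cortical marker. Leaving it out is a choice made with its values known, and the part of cortical RNA in these differences was not tested. Without the array labelled WT replicate 1, which keeps all Bgn_KO arrays, the differences were -0.59 for Fkbp5, -2.09 for Plin4 and -1.02 for Sult1a1 (limma adjusted p between 0.391 and 0.494).

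Most of the targets varied together from array to array. Each tested gene was represented by its brightest probe, which gave 21 pairs of 7 genes. Pearson's r over the 8 arrays was over 0.80 for 10 of the 21 pairs, a level reached by 1.19% of all pairs of tested probes. The mean r was 0.62 over the 21 pairs and 0.00297 over all pairs of tested probes, and the mean of Spearman's rho over the 21 pairs was 0.70. The background of all pairs is not a like one. Of the 7 probes used, 6 were in the top 10% of tested probes by SD over the 8 arrays, where the median SD was 0.20. Pairs matched for SD were not examined, so the contrast is not particular to glucocorticoid targets. By exact permutation of the arrays, 11 pairs passed 0.05 by r and 15 by rho after adjustment over the 21 pairs. Pairs that share a gene are not independent, and the genes were chosen with earlier results of these data known, which the p-values do not take into account.

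**Figure D2:**
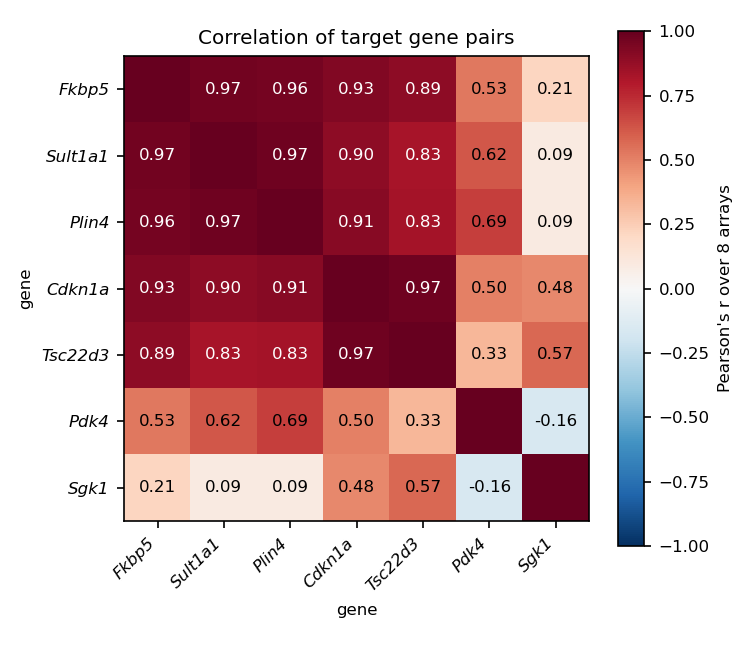
Pearson's r over the 8 arrays for each pair of 7 target genes (colour scale from -1 to 1, both axes list the genes, the number in each cell is r). The 10 pairs among Fkbp5, Sult1a1, Plin4, Cdkn1a and Tsc22d3 lie between 0.83 and 0.97, while Sgk1 pairs range from -0.16 to 0.57.

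The closest pair was Plin4 with Sult1a1 (r = 0.97, rho = 0.98, exact permutation p = 4.71e-04 and 3.97e-04). It was followed by Tsc22d3 with Cdkn1a (r = 0.97, rho = 0.95, exact permutation p = 1.98e-04 and 0.00114) and Fkbp5 with Sult1a1 (r = 0.97, rho = 0.98, exact permutation p = 3.22e-04 and 3.97e-04). Of all pairs of tested probes, 0.00424%, 0.00603% and 0.00927% had an r at or above these. Fkbp5, Plin4, Sult1a1, Cdkn1a and Tsc22d3, grouped here after their values were seen, had r of 0.83 to 0.97 in all 10 of their pairs. After subtracting each genotype's mean, the lowest r among these 10 pairs was 0.87. Among the 4 Bgn_KO arrays alone the 10 pairs had r of 0.94 to 0.999. This was not particular to the group, since Pdk4 had r of 0.91 (Fkbp5) to 0.98 (Cdkn1a) with its members there. Bgn_KO replicate 4 was the highest of these arrays for each of the genes, and r among the others alone was not computed. Among the 4 WT arrays r was 0.52 for Tsc22d3 with Plin4, 0.68 for Tsc22d3 with Sult1a1 and 0.79 to 0.97 for the remaining pairs of the 10. With 1 array left out, the lowest r was 0.75, for Tsc22d3 with Plin4 without Bgn_KO replicate 1. With the 2 arrays farthest from the median of the first gene left out, the lowest was 0.78, for Fkbp5 with Tsc22d3.

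Pdk4 followed the others more closely in rank than on the log2 scale. Its r was 0.69 with Plin4, 0.62 with Sult1a1, 0.53 with Fkbp5, 0.50 with Cdkn1a and 0.33 with Tsc22d3. Only the pair with Plin4 passed by r (exact permutation p = 0.0130, adjusted p = 0.0249 over the 21 pairs). The corresponding rho was 0.86, 0.81, 0.79, 0.90 and 0.79, and all 5 pairs passed by rho. Without WT replicate 4, the array with muscle transcripts, its r was 0.97 with Cdkn1a, 0.95 with Tsc22d3 and 0.86 with Fkbp5. Sgk1 was the exception. Its r was 0.57 with Tsc22d3, 0.21 with Fkbp5, 0.09 with Sult1a1 and 0.09 with Plin4 (exact permutation p between 0.140 and 0.833). Without Bgn_KO replicate 4 and WT replicate 1, its 2 arrays farthest from the median, the r with Tsc22d3 was -0.11. Among the 4 Bgn_KO arrays its r was 0.97 with Tsc22d3, 0.87 with Fkbp5, 0.96 with Plin4 and 0.89 with Sult1a1. Among the 4 WT arrays the same pairs had r of 0.42, -0.03, -0.37 and -0.26. No test was made on 4 arrays, and over all arrays but Bgn_KO replicate 4 the r with Tsc22d3 was 0.19.

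**Figure D3:**
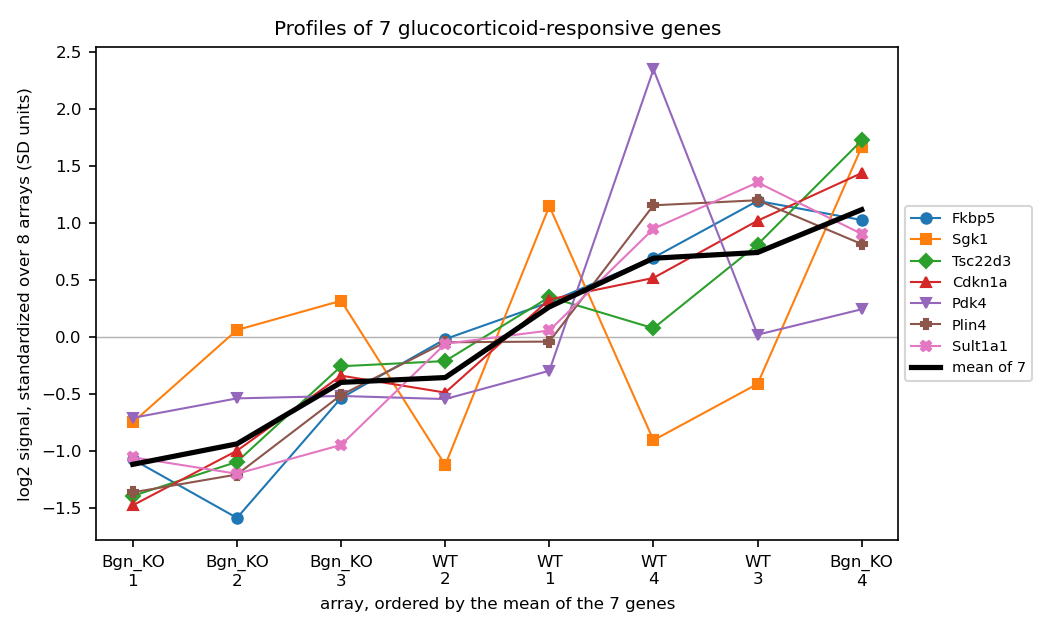
Log2 signal of 7 target genes on each array, standardized over the 8 arrays to SD units (vertical axis), with the arrays ordered by the mean of the genes (black line, horizontal axis). The lines of Fkbp5, Sult1a1, Plin4, Cdkn1a and Tsc22d3 rise together, while Pdk4 peaks on WT replicate 4 and Sgk1 on Bgn_KO replicate 4 and WT replicate 1.

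The mean of the 7 standardized profiles ordered the arrays from Bgn_KO replicate 1 (-1.12) over Bgn_KO replicates 2 (-0.94) and 3 (-0.40), WT replicates 2 (-0.36), 1 (0.26), 4 (0.69) and 3 (0.74) to Bgn_KO replicate 4 (1.12). The genotypes were therefore interleaved through a single array. Other measures of the arrays were set beside this mean. The median deposited signal correlated with it with r = 0.70 (rho = 0.69, n = 8) and the number of detected probes with r = 0.21 (rho = 0.31). Whether array brightness had a part was not tested. Of the marker lists, microglia (5 of 6 markers tested, mean log2 signal 7.35 to 7.80 in Bgn_KO and 7.75 to 7.83 in WT) correlated with r = 0.67 and choroid plexus (3 of 6, 7.65 to 8.59 and 8.52 to 9.07) with r = 0.64. The markers of neither list ran together. Microglial r was 0.74 for P2ry12, 0.63 for Ctss, 0.45 for Tmem119, 0.10 for Cx3cr1 and -0.26 for Aif1. For choroid plexus it was 0.72 for Ttr, 0.14 for Kl and -0.49 for Clic6. Oligodendrocyte markers (7 of 8, 11.93 to 12.15 and 12.21 to 12.64) followed with r = 0.49, and single markers had 0.10 (Mag) to 0.71 (Mal). Cortical markers (2 of 6, 6.07 to 7.57 and 5.64 to 6.22) had r = 0.44. Muscle markers, with the values given beside Pdk4, had r = 0.40 (rho = 0.60), and endothelial markers (3 of 6, 9.24 to 9.59 in both genotypes) r = 0.35. Lower values were found for meningeal fibroblasts (0.24), neurons (0.18) and pericytes (0.17). Markers of astrocytes (-0.26), hypothalamic neurons (-0.29) and pituitary (-0.38) ran the other way. The part of any of these cell types in the shared variation was not tested.

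Genes outside the set with the most similar pattern were found by r over the 8 arrays among 13366 named probes. Closest to the mean profile were Coq2, an enzyme of ubiquinone synthesis (r = 0.96), Clrn1 (0.94), the histone demethylase Kdm5d (0.94), Rundc1 (0.94) and the transcription factor Irf2 (0.94). Altogether 25 tested probes reached r of 0.9, members included. Closest to Fkbp5 was Cavin2 (r = 0.97), a caveolar protein gene that glucocorticoids are known to induce, followed by Trmt61a and the ceramidase gene Acer2 (both 0.95). Cavin2 read 9.28, 9.06, 9.35 and 9.79 on the Bgn_KO arrays and 9.46, 9.62, 9.81 and 9.70 on the WT arrays (log2 difference -0.28, limma adjusted p = 0.585). Its low and high arrays were those of Fkbp5, with Bgn_KO replicate 2 lowest and WT replicate 3 highest. Closest to Tsc22d3 were Irf2 (0.97), the chaperone gene Dnajb5 (0.96) and Apbb3 (0.95), and closest to Sgk1 were Cnot2 (0.99), Lrfn1 (0.98) and Plppr4 (0.96). With 8 arrays and so many probes, high r values of this kind describe these arrays only.

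Other genes known to be glucocorticoid-induced shared part of the pattern. Of 20 such genes 17 were tested, and their median r with the mean profile was 0.63, against -0.05 over all tested probes. An r over 0.6 was found for 10 of 17, and for 6.66% of all tested probes. The highest were Cavin2 (0.88) and, named here after their values were seen, Fam107a (0.87), an actin-bundling protein of astrocytes and neurons, Mfsd2a (0.86), the lipid transporter of the blood-brain barrier, and the metallothionein Mt1 (0.82). Fam107a read 11.80, 11.90, 11.94 and 12.36 on the Bgn_KO arrays and 12.53, 11.88, 12.52 and 12.33 on the WT arrays, and the groups overlapped. In contrast the phosphatase Dusp1, also an immediate early gene, had r = -0.23 and Ddit4, an inhibitor of mTOR signalling, 0.05.

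**Figure D4:**
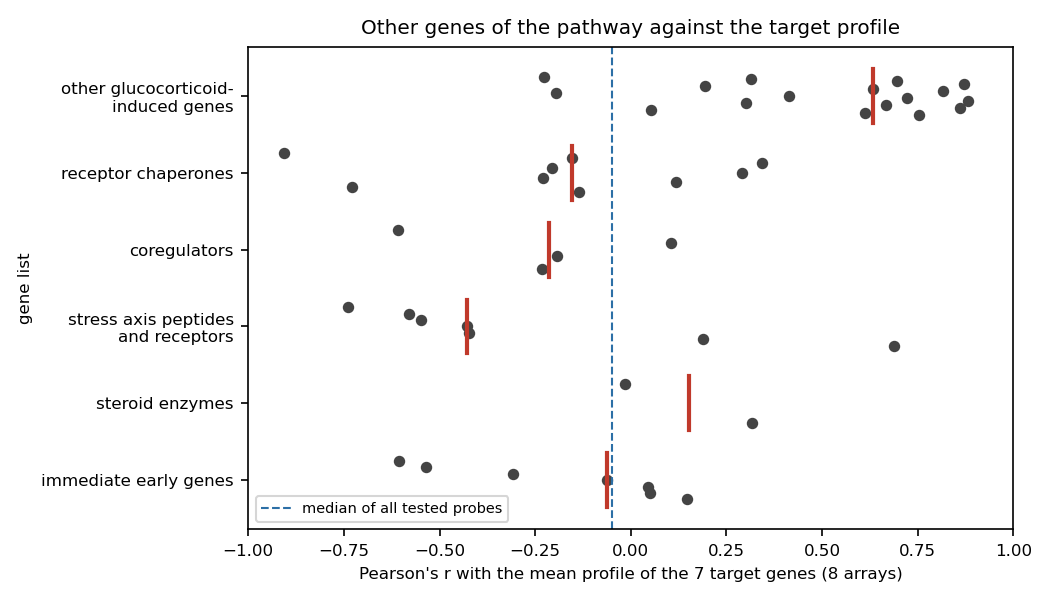
Pearson's r over the 8 arrays of each tested gene (points) with the mean profile of the 7 target genes (horizontal axis), by gene list (vertical axis). Red bars are list medians and the dashed line is the median of all tested probes; the other glucocorticoid-induced genes have a median of 0.63.

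Between the genotypes, 10 of these 17 genes had lower and 7 higher means in Bgn_KO (median log2 difference -0.09), and 1 passed the test. Map3k6, a stress-activated kinase gene, read 5.47, 5.69, 5.90 and 6.37 on the Bgn_KO arrays and 7.25, 6.77, 6.96 and 6.997 on the WT arrays, without overlap. It fell by 1.14 on the log2 scale in Bgn_KO (SE 0.19, limma adjusted p = 0.0386). The call was lost without any 1 array other than Bgn_KO replicate 4 (limma adjusted p between 0.0605 and 0.130), and its size was -0.41 without background correction and -0.40 in the authors' processed values. Ddit4 differed by 0.45 (limma adjusted p = 0.369).

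Chaperones of the receptor did not pass. Of 9 tested, 7 had lower and 2 higher means (median log2 difference -0.06), with Ptges3, the p23 co-chaperone, at -0.28 (limma adjusted p = 0.316) and Dnaja1 at -0.50 (limma adjusted p = 0.536). With the target mean the 9 chaperones had a median r of -0.15, and they ranged from -0.91 (Fkbp4) to 0.34 (Dnaja1). Fkbp4, the lowest of them and named after its values were seen, is the co-chaperone that competes with Fkbp5 for Hsp90. As the extreme of a list, Fkbp4 does not stand for the chaperones. Its probe read 12.70, 12.71, 12.75 and 12.35 on the Bgn_KO arrays and 12.60, 12.67, 12.47 and 12.54 on the WT arrays. The array with the highest target mean had the lowest Fkbp4. The 4 coregulators tested of 10 had higher means (median 0.11), among them Ncoa1 (0.25, limma adjusted p = 0.579) and Med1 (0.11, limma adjusted p = 0.774), and 0 passed.

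Of 6 genes that set the steroid level in cells, Hsd11b1, which regenerates active corticosterone, and H6pd, which supplies its cofactor, were tested. Their differences were -0.11 and -0.18 (limma adjusted p = 0.788 and 0.701). The brightest Hsd11b1 probe stayed between 10.48 and 10.93 on all 8 arrays, while the probe of Hsd11b2, the enzyme that inactivates the hormone, was above background on 0 arrays. Of the stress axis, 7 of 10 genes were tested, 4 with lower and 3 with higher means, and 0 passed. The releasing hormone Crh was above background on 1 array and was not tested. Avp was bright, at 12.54 to 13.17 in Bgn_KO and 12.75 to 13.39 in WT (difference -0.04, limma adjusted p = 0.966). The receptor probes with the smallest p were those of Crhr1 (-0.30, limma adjusted p = 0.548) and Crhr2 (0.22, limma adjusted p = 0.732), and another probe of Crhr1 differed by 0.29.

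Immediate early genes, which respond to neuronal activity and acute stress, did not follow the targets as a list. All 7 tested of 9 had higher means in Bgn_KO (median log2 difference 0.64), and 0 passed over all probes. Egr1 read 12.77, 12.58, 12.59 and 12.95 on the Bgn_KO arrays and 12.47, 11.88, 11.36 and 11.89 on the WT arrays, without overlap (0.82, SE 0.21, limma adjusted p = 0.176). Junb differed by 0.64 (limma adjusted p = 0.450), and by 0.38 without WT replicate 3. Their median r with the mean profile of the targets was -0.06, with single genes from -0.61 (Junb) to 0.15 (Arc). WT replicate 3, among the highest arrays for the targets, had the lowest mean of the immediate early genes (7.16 against 7.85 to 8.68 on the other arrays). Bgn_KO replicate 4, the highest array for the targets, also had the highest mean of the immediate early genes (8.68).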

How the data were processed

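The authors deposited signal intensities under the name non-normalized, each with a detection p-value, also deposited. Their second table holds processed linear intensities, with column medians of 194.7 to 195.7 and no centring of genes. The submitters' processing notes name lumi 2.10.0 and R 2.15.0, and how these values were normalized is not given. Single letters in the sample descriptions matched columns to samples.

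Background correction (limma 3.58.1 in R 4.3.3) used normexp with its parameters taken from detection p-values and an offset of 16. Quantile normalization and log2 followed. Probes with detection p under 0.05 on at least 4 of 8 arrays were tested (14190), by a linear model with moderated variances and Benjamini-Hochberg adjustment over all of them at 0.05. Of 25697 probes 23978 carry 1 gene symbol, 0 several and 1719 are not listed, and symbols were updated through Entrez ID. Stand-in probes are those with the highest mean. Permutation p-values are two-sided and exact, over 70 splits or 40320 orders. P-values measure the spread between these 8 animals, and the number of arrays limits the precision (median SE 0.13).

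All member genes were named. From other lists the genes past 0.05 and the 2 with the smallest p were named, and the nearest profiles by r (Nr3c1, untested, has none). Fam107a, Mfsd2a, Mt1, Dusp1, Fkbp4, Avp, Crh, Hsd11b2 and the cell type markers were named after their values were seen. Members and lists were chosen with earlier results of these data known. Replicate numbers are shared by both genotypes, but same-numbered arrays did not deviate together (r -0.01, -0.19, 0.02 and 0.10), so no pairing was used.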

Additional observations from a re-analysis of the deposited data

Results flagged for a closer look

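Bgn_KO replicate 4 was far from the other arrays of its group for 2 of 11 member probes. For the Cdkn1a probe ILMN_2846775 it read 8.95, against 7.47 to 7.59 on the other Bgn_KO arrays. For Sult1a1 it read 10.53, against 8.91 to 9.11. Among 22 groups of 4 arrays examined 2 were so marked, and chance marks about 0.05 of such groups.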

How the results depend on the processing

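Over 17 alternatives 0 member genes passed the adjusted threshold in any, and the lowest limma adjusted p of a member probe was 0.121. Of 169 alternative values of member probes 165 kept their sign. The 4 that reversed were small: with 1 array left out, ILMN_2701664 of Tsc22d3 ranged from -0.20 to 0.029 (above 0 without Bgn_KO replicate 1) and ILMN_2846776 of Cdkn1a from -0.46 to 0.0087 (0.0053 without Bgn_KO replicate 1, 0.0080 without Bgn_KO replicate 2, 0.0087 without WT replicate 3). Of 201 values of 12 other named genes 9 lost the call, all of Map3k6, among them that without a filter on dim probes (limma adjusted p = 0.0590) and with the replicate block (0.148). The count over all probes, 72, was 47 among probes detected at 0.01 on all arrays, 116 with array weights, 26 with the replicate block, 35 without both arrays numbered 4, and 42 to 69 with 1 array left out. The block moved no member past the threshold. The mean r over target pairs, 0.62, was 0.55 to 0.80 with 1 array left out (highest without WT replicate 4), 0.70 without both arrays numbered 4, 0.70 as Spearman's rho and 0.35 under the replicate block, which leaves few degrees of freedom. It was 0.61 to 0.66 under the other normalizations and 0.68 within genotypes. Signals near background limit Nr3c1 and Crh, which were not tested, and Plin4, Map3k6, Dnaja1 and Crhr2, which did not pass the filter at 0.01 on all arrays.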
